A study of Mus musculus with 4 samples.

Results

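The 10 genes described here encode factors that bind, bridge or modify the chromatin of olfactory receptor enhancers: *Lhx2*, *Ldb1*, *Ebf1*, *Ebf2*, *Ebf3*, *Ebf4*, *Emx2*, *Bptf*, *Bcl11b* and *Kdm1a*. They were chosen by name from the 24421 genes of the deposited expression table, and all 10 were found there. An olfactory sensory neuron (OSN) expresses a single odorant receptor (OR) or trace amine-associated receptor (TAAR) gene. Distant enhancers of *OR* genes carry paired sites for the LIM-homeodomain protein LHX2 and for EBF proteins, and the adaptor LDB1 holds LHX2-bound enhancers from different chromosomes together. The histone demethylase LSD1, encoded by *Kdm1a*, acts when a silent receptor gene is first switched on, and EMX2, BPTF and BCL11B are further nuclear proteins with reported roles in *OR* gene expression. The study asked how the 2 enhancers of the *Taar* gene cluster work, and the question taken here is at what level these factors were expressed in cells in which each enhancer drove a reporter.

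The data are 4 RNA-seq libraries, 1 for each sorted cell population, from the main olfactory epithelium (MOE) of mice that the labels give as C57BL/6. GFP-negative and GFP-positive cells came from TAAR enhancer 1-GFP transgenic mice, and tdTomato-negative and tdTomato-positive cells came from TAAR enhancer 2-tdTomato transgenic mice. Each transgene joins its enhancer to a minimal *Hsp68* promoter and the reporter, each line descends from 1 founder, and no deletion is listed in the genotype of any sample. The study's methods name C57BL/6J eggs for the transgenes, and its reporting form gives mixed C57BL/6J and 129 backgrounds for the mouse lines as a whole. The sample labels call all mice adult, while that form gives early postnatal ages that are not the same for both lines, and male and female mice were used. Enhancer, reporter colour, insertion and age therefore cannot be told apart when the lines are compared.

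Values are in TPM, a transcript abundance that is scaled for transcript length and sums to 1000000 in each library, so the read depth behind a value is unknown. A log2 fold change here is log2 of (TPM + 1) in reporter-positive over (TPM + 1) in reporter-negative cells of the same line, and a fold without the word log2 is the plain ratio of TPM. With 1 library per group there is no replicate error, no difference could be tested, and "2-fold lower", which is counted on the log2(TPM + 1) scale throughout, describes these libraries only.

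The cell populations were compared first by 10 lists of marker genes, since each library is a mixture. The 12 mature OSN markers summed to 30723 TPM among GFP-negative and to 3333 TPM among GFP-positive cells, and to 33144 and 15021 TPM in the tdTomato-negative and tdTomato-positive libraries. All 12 were at least 2-fold lower in GFP-positive cells, and 7 of 12 were in tdTomato-positive cells, with medians of -3.08 and -1.04 on the log2 scale. The 7 immature OSN markers had medians of -2.16 and -1.08. The 5 Bowman gland markers summed to 68923 TPM in GFP-positive cells against 1715 TPM in GFP-negative cells, and the 7 multiciliated cell markers to 6960 TPM in tdTomato-positive against 585.8 TPM in tdTomato-negative cells. Sustentacular cell markers summed to 947.1 and 6735 TPM in GFP-negative and GFP-positive cells, and to 1506 and 4373 TPM in tdTomato-negative and tdTomato-positive cells. In the tdTomato line this sum rested on *Cyp2a5* (745.2 and 3572 TPM), with 2 of the 6 markers at least 2-fold higher and 2 at least 2-fold lower. Markers of globose basal cells and OSN precursors summed to 140.7 and 58.8 TPM in the GFP line and to 123.2 and 21.1 TPM in the tdTomato line, where 6 of 7 were at least 2-fold lower. The 7 stromal and pericyte markers went from 100.1 to 410.5 TPM in the GFP line and from 194.6 to 49.6 TPM in the tdTomato line. These sums rested on *Rgs5*, which went from 37.4 to 261.9 TPM and from 158.2 to 15.2 TPM. In the GFP line 4 of the 7 were at least 2-fold higher and 2 lower, and of 5 counted in the tdTomato line only *Rgs5* was lower. Horizontal basal cell markers went in opposite directions in the 2 lines, from 63.0 to 629.2 TPM in the GFP line and from 151.6 to 29.1 TPM in the tdTomato line. Mature OSN RNA therefore made up a smaller share of both reporter-positive libraries, and RNA of Bowman gland and multiciliated cells a larger one. In sorted bulk samples, fewer cells of a type and less RNA per cell cannot be told apart, and the part of these markers in the values below was not tested.

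All 10 genes had lower TPM in reporter-positive than in reporter-negative cells in both lines, as did 75.5% of all genes counted in the GFP line and 60.0% in the tdTomato line. Of the 10 genes, 9 were at least 2-fold lower in GFP-positive cells, the exception being *Kdm1a*, beside 45.0% of all 16173 genes that reached 1 TPM in either library of that line. In tdTomato-positive cells 4 of 10 were at least 2-fold lower, *Ebf1*, *Ebf2*, *Ebf3* and *Bcl11b*, beside 23.2% of 15777 genes. None of the 10 was 2-fold higher in either line, beside 14.2% and 17.2% of genes. The same 4 genes were lower in both lines, beside 15.4% of the 15033 genes that could be counted in both. With median-ratio scaling *Ldb1* (-0.76) and *Bptf* (-0.34) were no longer 2-fold lower in the GFP line, which left 7 of 10 beside 21.7% of all genes (21.4% were higher), and without the highest genes *Bptf* was not (-0.71), which left 8 of 10 beside 29.7%. In the tdTomato line *Ebf2* and *Ebf3* lost the call under both scalings, which left 2 of 10 beside 19.9% and 22.3% of all genes, near the background.

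The median log2 fold change of the 10 genes was -2.63 in the GFP line and -0.82 in the tdTomato line, against -0.88 and -0.23 over all genes counted. These directions are relative to the total RNA of each library. Scaled to the 12 mature OSN markers, 9 of the 10 genes were higher in GFP-positive cells (all but *Ebf1*). In tdTomato-positive cells 8 of 10 were then higher (all but *Ebf1* and *Bcl11b*). At 2-fold, 3 and 0 of the 10 were higher with this scaling, beside 77.3% and 39.0% of all genes. Median-ratio scaling turned only *Kdm1a* in the GFP line, to 0.08. The 10 highest genes took 31.5% of all TPM in the GFP-positive library and 5.72% to 9.44% in the other 3 libraries. The median over all genes moved by 0.81, 0.45 and 2.91 in the GFP line, and by 0.15, 0.05 and 0.99 in the tdTomato line, with scaling by median ratios, without the highest genes and to mature OSN markers.

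**Figure D1:**
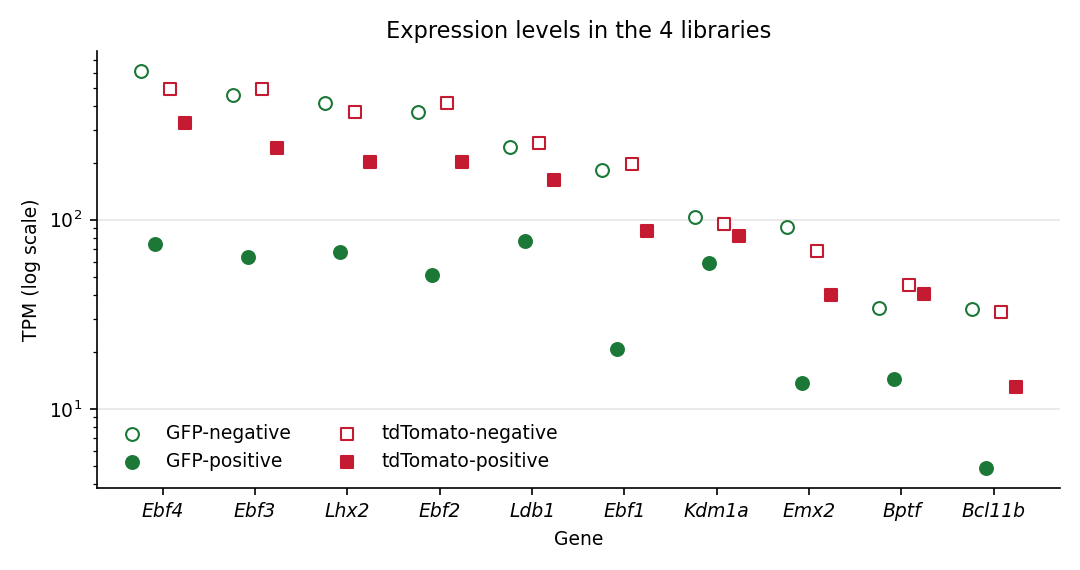
Expression level of each gene in TPM (vertical axis, log scale) in GFP-negative and GFP-positive cells (open and filled circles) and in tdTomato-negative and tdTomato-positive cells (open and filled squares), 1 library per group. The GFP-positive library holds the lowest value of every gene, from 77.6 TPM for *Ldb1* to 4.87 TPM for *Bcl11b*, as deposited. Scaled to the 12 mature OSN markers, 9 of the 10 GFP-positive values (all but *Ebf1*) would lie above the GFP-negative ones. At 2-fold 3 of the 10 would be higher, beside 77.3% of all genes.

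*Lhx2* encodes the LIM-homeodomain factor that binds *OR* enhancers and is needed for OSN development. It lies at chr2:38339281-38369733 on the plus strand (GRCm38, GENCODE M21), as do all positions below on that build and annotation. Its level was 416.3 TPM in GFP-negative, 67.5 TPM in GFP-positive, 370.9 TPM in tdTomato-negative and, for tdTomato-positive cells, 202.8 TPM. The value was thus 6.17-fold lower in GFP-positive cells (log2 fold change -2.61) and 1.83-fold lower in tdTomato-positive cells (log2 fold change -0.87). These log2 fold changes lay 0.47 and 0.17 above the median of the mature OSN markers. Its level exceeded that of 98.1% and 97.8% of expressed genes in GFP-negative and tdTomato-negative cells, and still that of 89.6% and 94.2% in GFP-positive and tdTomato-positive cells.

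*Ldb1* (chr19:46031570-46045214, minus strand) encodes the LIM-domain-binding adaptor that bridges LHX2-bound sites. Its level was 242.9 TPM in GFP-negative, 77.6 TPM in GFP-positive, 254.4 TPM in tdTomato-negative and, for tdTomato-positive cells, 162.9 TPM. The log2 fold changes were -1.63 and -0.64, or 1.44 and 0.40 above the mature OSN median. *Ldb1* stood below *Lhx2* and 3 *Ebf* genes in both negative libraries and in tdTomato-positive cells, but above all of them in GFP-positive cells. The ratio of *Lhx2* to *Ldb1* TPM, which scaling of a library cannot change, was 1.71 in GFP-negative, 0.87 in GFP-positive, 1.46 in tdTomato-negative and 1.24 in tdTomato-positive cells. The adaptor transcript was thus more abundant than the *Lhx2* transcript in the GFP-positive library alone. A gene on the opposite strand, *Pprc1*, overlaps *Ldb1* by 329 bases and measured 11.5, 3.90, 17.8 and 6.33 TPM in the same order.

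The 4 *Ebf* genes encode EBF proteins, helix-loop-helix factors that bind DNA as dimers and were first described as regulators of the OSN gene *Omp* and of early B cell genes. They lie at chr11:44617317-45008091 on the plus strand (*Ebf1*), chr14:67233292-67430918 on the plus strand (*Ebf2*), chr7:137193673-137314445 on the minus strand (*Ebf3*) and chr2:130295169-130370481 on the plus strand (*Ebf4*). Because they are paralogs, their transcripts were compared for shared sequence that could blur the assignment of reads. No stretch of 50 bases was shared between transcripts of any pair of the 10 genes. The longest runs shared within the *Ebf* family, shown with every shared base in capitals to give the scale of their similarity, were 24 and 27 bases.
*Ebf1* and *Ebf3*: GAGCCGCTGGGCAGCGGCATGAAC
*Ebf3* and *Ebf4*: GAGATCATGTGCAGCCGGTGCTGTGAC

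*Ebf1* measured 183.7 TPM in GFP-negative, 20.8 TPM in GFP-positive, 198.2 TPM in tdTomato-negative and, for tdTomato-positive cells, 86.8 TPM. Its 8.83-fold lower level in GFP-positive cells was as deposited the largest difference of the 10 genes in that line (log2 fold change -3.08), but at -0.03 the smallest when scaled to mature OSN markers, and it was 2.28-fold lower in tdTomato-positive cells (log2 fold change -1.18). Both values lay close to the mature OSN median, at -0.0045 and -0.14 from it. *Ebf1* is also a defining factor of B cells, and 7 B cell markers stood at 759.3 TPM in sum in GFP-negative cells (36.2 to 256.5 TPM each) and 1.91 TPM in GFP-positive cells (at most 0.708 TPM each). In the tdTomato line they summed to 251.3 and 5.22 TPM, with 3 of the 7 listed at 0 in tdTomato-positive cells and all 7 at least 2-fold lower in both lines. Their part in the *Ebf1* values was not tested.

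*Ebf2* measured 372.8 TPM in GFP-negative, 50.8 TPM in GFP-positive, 412.7 TPM in tdTomato-negative and, for tdTomato-positive cells, 201.3 TPM. *Ebf3* measured 455.6, 63.3, 490.2 and 239.1 TPM in the same order. Their log2 fold changes were almost the same, -2.85 and -2.83 in the GFP line and -1.03 and -1.03 in the tdTomato line. Both genes passed the 2-fold line in tdTomato-positive cells by little, at 2.05-fold, and fell under it with median-ratio scaling (-0.88 for each) and without the highest genes (-0.98 for each). An antisense gene, *Gm6878*, overlaps 9824 bases of the *Ebf2* locus and measured 32.7 TPM in GFP-negative, 6.23 TPM in GFP-positive, 43.1 TPM in tdTomato-negative and, for tdTomato-positive cells, 10.9 TPM. The study's methods name the Smart-seq2 procedure for these libraries, which keeps no strand, while the labels name another kit. Without strand, reads from bases that lie in exons of both genes of a pair cannot be told apart. The overlaps given here are of whole genes, introns included, and overlap of exons was not examined.

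*Ebf4* was the highest of the 10 genes in GFP-negative cells and in tdTomato-positive cells. It measured 614.8 TPM in GFP-negative, 74.6 TPM in GFP-positive, 489.9 TPM in tdTomato-negative and, for tdTomato-positive cells, 325.6 TPM. As deposited it differed most between the lines, which scaling to mature OSN markers turned to *Kdm1a*: *Ebf4* was 8.25-fold lower in GFP-positive cells (log2 fold change -3.03) but at 66.5% of the negative level in tdTomato-positive cells (log2 fold change -0.59). Its log2 fold change lay 0.05 above the mature OSN median in the GFP line and 0.45 above it in the tdTomato line, where even the highest of the 12 OSN markers was at -0.81.

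Summed over the family, *Ebf* transcripts went from 1627 TPM in GFP-negative to 209.4 TPM in GFP-positive cells and from 1591 TPM in tdTomato-negative to 852.8 TPM in tdTomato-positive cells. These sums correspond to 7.77-fold and 1.87-fold lower levels as deposited. Scaled to mature OSN markers, the log2 ratios of the sums turned to 0.15 and 0.17. Within the sum, *Ebf4* gave 37.8%, 35.6%, 30.8% and 38.2% in GFP-negative, GFP-positive, tdTomato-negative and tdTomato-positive cells. *Ebf3* gave 28.0%, 30.2%, 30.8% and 28.0%, *Ebf2* gave 22.9%, 24.3%, 25.9% and 23.6%, and *Ebf1* gave 11.3%, 9.93%, 12.5% and 10.2%. *Ebf1* was the smallest contributor in all 4 libraries, and the make-up of the family varied far less than its level as deposited. The ratio of summed *Ebf* to *Lhx2* TPM was 3.91 in GFP-negative, 3.10 in GFP-positive, 4.29 in tdTomato-negative and 4.21 in tdTomato-positive cells.

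**Figure D2:**
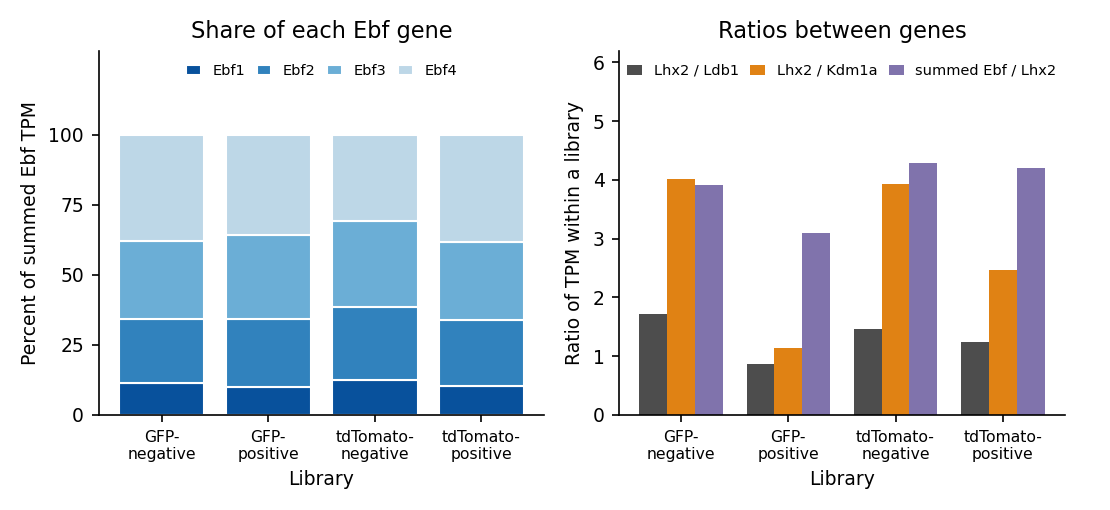
Left, share of each *Ebf* gene in the summed *Ebf* TPM of a library (percent, stacked bars). Right, ratios of TPM between genes within a library (bars from 0), where *Lhx2* over *Kdm1a* goes from 4.01 in GFP-negative to 1.14 in GFP-positive cells while summed *Ebf* over *Lhx2* stays between 3.10 and 4.29.

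*Emx2* (chr19:59458372-59465357, plus strand) encodes a homeodomain factor needed for normal expression of many *OR* genes. It measured 91.1 TPM in GFP-negative, 13.6 TPM in GFP-positive, 68.2 TPM in tdTomato-negative and, for tdTomato-positive cells, 39.8 TPM. This was 6.68-fold lower in GFP-positive cells (log2 fold change -2.65) and 1.72-fold lower in tdTomato-positive cells (log2 fold change -0.76). *Lhx2* and *Emx2* kept a similar proportion in every library, with ratios of 4.57, 4.95, 5.44 and 5.10 in the order above. The antisense gene *Emx2os* overlaps *Emx2* by 264 bases and measured 12.9, 2.56, 6.02 and 5.52 TPM.

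*Bcl11b* (chr12:107910403-108003602, minus strand) encodes a zinc-finger factor that in OSNs bears on which class of *OR* genes is expressed and that is also a defining factor of T cells. It measured 33.8 TPM in GFP-negative, 4.87 TPM in GFP-positive, 32.5 TPM in tdTomato-negative and, for tdTomato-positive cells, 13.0 TPM. The log2 fold changes were -2.57 and -1.26, the latter the largest difference of the 10 genes in the tdTomato line as deposited, at 2.50-fold, but at -0.24 smaller in size than those of *Bptf*, *Kdm1a*, *Ebf4*, *Ldb1* and *Emx2* when scaled to mature OSN markers. The 7 T cell markers summed to 285.9 TPM in GFP-negative, 4.12 TPM in GFP-positive, 346.0 TPM in tdTomato-negative and, for tdTomato-positive cells, 4.88 TPM, and each of the 7 was at least 2-fold lower in both lines. In positive cells the highest T cell marker was at 1.18 and 3.47 TPM, and *Cd3e* was listed at 0 in GFP-positive cells. The part of T cells in the *Bcl11b* values was not tested. Of its 8156 windows of 50 bases, 4 were shared with another gene, *Gm45147*.

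As deposited, the chromatin genes differed less between labelled and unlabelled cells than the other factors in both lines. Scaled to mature OSN markers, *Kdm1a* (log2 fold changes 2.28 and 0.85) and *Bptf* (1.81 and 0.86) differed most among the factors in both lines. That scaling moved the median over all genes by 2.91 in the GFP line and 0.99 in the tdTomato line. With it, 77.3% and 39.0% of all genes were 2-fold higher. As deposited, *Kdm1a* lay 0.08 and 0.04 from the all-gene median of the GFP and tdTomato lines, and *Bptf* -0.31 and 0.07. *Bptf* (chr11:107033081-107132127, minus strand) encodes the largest subunit of the nucleosome remodelling factor NURF. It measured 34.0 TPM in GFP-negative, 14.4 TPM in GFP-positive, 45.4 TPM in tdTomato-negative and, for tdTomato-positive cells, 40.3 TPM. The log2 fold change was -1.19 in the GFP line, a 2.37-fold lower level, and -0.17 in the tdTomato line, where the all-gene median was -0.23. *Bptf* and *Bcl11b* were nearly equal in GFP-negative cells, with a ratio of 1.01, and *Bptf* was 2.95 times *Bcl11b* in GFP-positive and 3.10 times in tdTomato-positive cells.

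*Kdm1a* (chr4:136550540-136602723, minus strand) encodes LSD1, which removes methyl groups from histone H3. It measured 103.8 TPM in GFP-negative, 59.4 TPM in GFP-positive, 94.5 TPM in tdTomato-negative and, for tdTomato-positive cells, 82.2 TPM. GFP-positive cells held 57.2% and tdTomato-positive cells 87.0% of the level in their negative counterparts, with log2 fold changes of -0.80 and -0.20 that both lay within 0.08 of the all-gene median. *Lhx2* TPM was 4.01 times that of *Kdm1a* in GFP-negative cells but 1.14 times in GFP-positive cells, and 3.92 and 2.47 times in tdTomato-negative and tdTomato-positive cells. *Luzp1*, on the opposite strand, overlaps 4241 bases of the locus and measured 2.65, 11.95, 5.14 and 17.5 TPM, higher in both positive libraries.

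**Figure D3:**
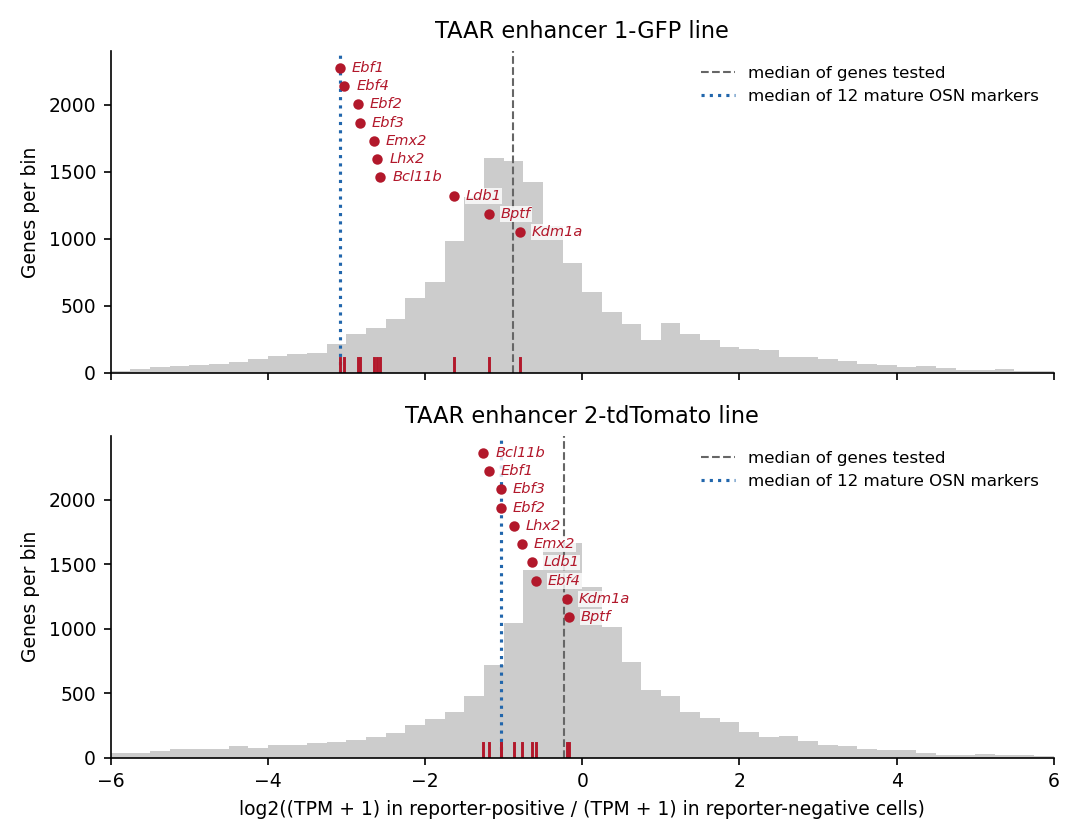
Distribution of log2 fold changes of all genes with at least 1 TPM in either library of a line (grey bars, genes per bin of 0.25), with the 10 genes as red marks and named points whose height only separates the names. In the GFP line the 7 DNA-binding factors lie at the mature OSN median (dotted line, -3.08) or up to 0.51 above it, while *Kdm1a* lies at the all-gene median (dashed line, -0.88), and in the tdTomato line the same medians are -1.04 and -0.23. All 10 genes lie below 0 as deposited, but 9 in the GFP line and 8 in the tdTomato line lie above 0 when scaled to OSN markers, and *Kdm1a* in the GFP line also does with median-ratio scaling. Scaled to OSN markers, 3 and 0 of the 10 are 2-fold higher, beside 77.3% and 39.0% of all genes.

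Grouped by role, the 7 sequence-specific DNA-binding factors (*Lhx2*, *Ebf1* to *Ebf4*, *Emx2* and *Bcl11b*) had median log2 fold changes of -2.83 in the GFP line and -1.03 in the tdTomato line. They lay between -0.0045 and 0.51 of the mature OSN median in the GFP line and between -0.22 and 0.45 in the tdTomato line. The 3 cofactor and chromatin genes (*Ldb1*, *Bptf* and *Kdm1a*) had medians of -1.19 and -0.20. They lay 1.44 to 2.28 above the mature OSN median in the GFP line and 0.40 to 0.87 above it in the tdTomato line. The median of these 3 genes lay -0.31 and 0.04 from the all-gene median in the GFP and tdTomato lines. That of the 7 DNA-binding factors lay -1.95 and -0.80 from it. In the GFP line the nearest genes of the 2 groups were *Bcl11b* and *Ldb1*, and 10.1% and 23.4% of all genes had lower log2 fold changes than these. In the tdTomato line the groups overlapped, with *Ebf4* above *Ldb1*.

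**Figure D4:**
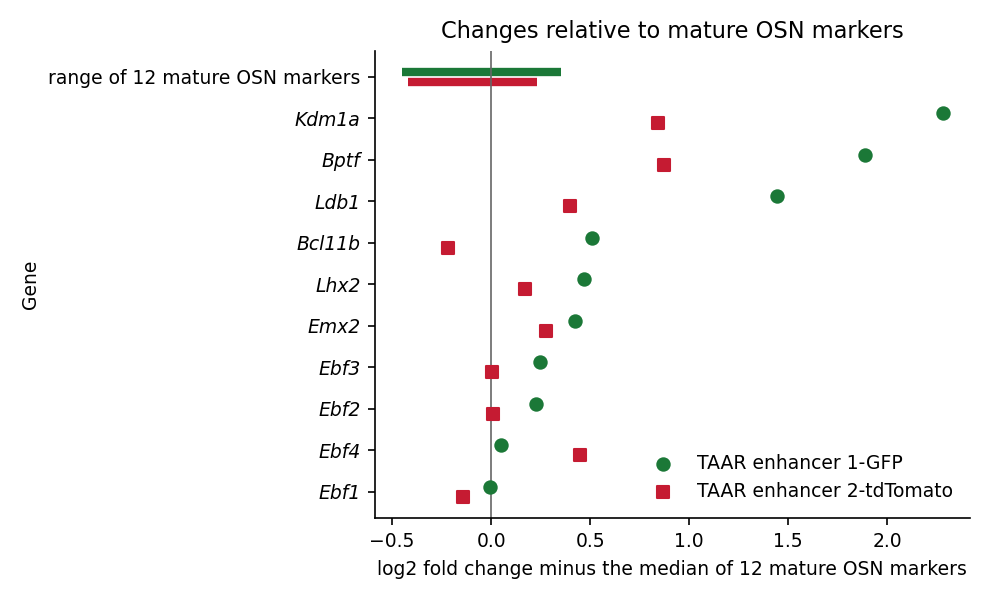
Log2 fold change of each gene minus the median of the 12 mature OSN markers (horizontal axis), in the GFP line (green circles) and the tdTomato line (red squares), with the range of the 12 markers as bars at the top. *Kdm1a*, *Bptf* and *Ldb1* lie 2.28, 1.89 and 1.44 above the markers in the GFP line, and 0.84, 0.87 and 0.40 above them in the tdTomato line. From the all-gene median the same 3 genes lie at 0.08, -0.31 and -0.76 in the GFP line. In the tdTomato line they lie at 0.04, 0.07 and -0.41 from it. Outside the marker range in the GFP line are these 3 and *Bcl11b*, *Lhx2* and *Emx2*. In the tdTomato line *Kdm1a*, *Bptf*, *Ldb1*, *Ebf4* and *Emx2* lie outside it.

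The lines were then compared with each other. Between the negative libraries the 10 genes differed by at most 1.34-fold, from -0.41 (*Emx2*) to 0.41 (*Bptf*) on the log2 scale for tdTomato-negative over GFP-negative cells, with a median of 0.01. Between the positive libraries all 10 were higher in tdTomato-positive than in GFP-positive cells, from 0.46 (*Kdm1a*) to 2.11 (*Ebf4*), with a median of 1.52 against 0.69 over all genes. Scaled to mature OSN markers all 10 were lower in tdTomato-positive than in GFP-positive cells, from -1.77 (*Kdm1a*) to -0.12 (*Ebf4*), and with median ratios *Kdm1a* was, at -0.30. The difference of log2 fold changes, tdTomato line minus GFP line, was 2.44 for *Ebf4*, 1.74 for *Lhx2* and 1.31 for *Bcl11b*, and it was smallest for *Kdm1a* at 0.60. Scaled to mature OSN markers the order turned, with -1.43 for *Kdm1a*, -1.04 for *Ldb1*, -0.95 for *Bptf* and 0.41 for *Ebf4*. Summed mature OSN markers were 3333 TPM in GFP-positive and 15021 TPM in tdTomato-positive cells, and their part in these differences was not tested.

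The order of the 10 genes by TPM, which is per transcript length, was nearly the same in the negative libraries. In GFP-negative cells it ran from *Ebf4* through *Ebf3*, *Lhx2*, *Ebf2*, *Ldb1*, *Ebf1*, *Kdm1a* and *Emx2* to *Bptf* and *Bcl11b*. In tdTomato-negative cells *Ebf3* and *Ebf4* stood level at 490.2 and 489.9 TPM, and *Ebf2* stood above *Lhx2*. In tdTomato-positive cells *Lhx2* and *Ebf2* stood level at 202.8 and 201.3 TPM, as did *Bptf* and *Emx2* at 40.3 and 39.8 TPM. In GFP-positive cells the order changed more, with *Ldb1* first, *Kdm1a* above *Ebf2* at 59.4 against 50.8 TPM and *Bptf* above *Emx2* at 14.4 against 13.6 TPM. With 1 library per group there is no spread by which neighbours in these orders could be called different.

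To find which genes had the most similar pattern, each gene was compared with the 13010 genes that reached 10 TPM in any library, by the distance between profiles of log2(TPM + 1) over the 4 libraries, each centred on its own mean. The nearest gene to *Ebf1* was *Omp*, the olfactory marker protein gene, at a distance of 0.0311. *Omp* measured 9584, 1108, 10108 and 4427 TPM in GFP-negative, GFP-positive, tdTomato-negative and tdTomato-positive cells, followed by *Ttll6* at 0.0736. *Ebf2* was nearest to *Pcdhb1* (0.0213) and *Spock1* (0.0468), and *Ebf3* was nearest to *Slit1* (0.0430) and to *Ebf2* itself (0.0549).

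*Lhx2* was nearest to *Eml6* (0.0646) and *Unc45a* (0.0796), *Emx2* to *Helz2* (0.0670) and *Sowaha* (0.0786), and *Bcl11b* to *Rassf4* (0.0395) and *Rnf182* (0.0762). *Ebf4* had the most distant neighbours, *Dmtn* (0.0913) and *Celf3* (0.112). *Ldb1* was nearest to *Hemk1* (0.0286) and *Fam45a* (0.0368), *Bptf* to *Ccdc82* (0.0353) and *Xiap* (0.0403), and *Kdm1a* to *Prpsap1* (0.0266) and *Nedd8* (0.0429). *Emx2* was the nearest of the other 9 genes to *Lhx2*, at rank 33 of all genes. By contrast *Ldb1*, the nearest of the 9 to *Kdm1a*, ranked 4870. These distances rest on 4 libraries that share their mixtures of cells and are a description only.

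The promoters were read for the sites that the *OR* enhancers pair. RefSeq promoter windows (GRCm38.p6, from 250 bases before to 50 bases after a transcription start) were found for 9 of the 10 genes, 13 windows in all, and were searched for TAATTA, a core of LIM-homeodomain sites, and for CCCNNGGG, a core of EBF sites. Both motifs read the same on both strands, and neither can overlap the other. TAATTA was found in 1 of 13 windows (7.69%), beside 5.29% of 32851 windows of all genes, and CCCNNGGG was found in 4 of 13 (30.8%), beside 13.7%. Both motifs within 30 bases of each other were found in 0 of 13 windows, beside 0.0883% of all. The median GC content was 67.3% in the 13 windows and 52.7% in all windows, and its part in the motif counts was not tested. The matches are given because they are the letters in these windows that resemble the enhancer sites, with the motif in capitals (for *Lhx2*, 2 overlapping matches).
*Lhx2*, second start, chr2:38351298-38351327, plus strand: ttgggaacacaCCCCGGGGGgaagagacgt
*Ldb1*, second start, chr19:46039650-46039679, minus strand: ccctccgcccgCCCTGGGGcctccttcgga
*Ebf3*, chr7:137314448-137314477, minus strand: acagcgccgctCCCGGGGGcttcgagtttt
*Bcl11b*, chr12:108003600-108003629, minus strand: cctcccccctcCCCTTGGGtggaagtgcgc
*Emx2*, chr19:59458714-59458739, plus strand: tgatccccgcacTAATTAggctcatg

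The EBF-type match began 1 base after the second annotated start of *Lhx2*, where a further match began 1 base later, 47 bases before the second start of *Ldb1*, 21 bases before the start of *Ebf3* and 204 bases before the start of *Bcl11b*. The homeodomain-type match began 36 bases after the start of *Emx2*. These distances are from the RefSeq start of each window. That start lies 12027 bases inside the GENCODE gene for the second start of *Lhx2* and 5593 bases inside it for that of *Ldb1*. It lies 188 bases inside the gene for *Bcl11b* and 318 bases inside it for *Emx2*. The windows of the first starts of *Lhx2* and *Ldb1* held no match. A match is a run of letters and not a shown binding site.

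Partners of these factors were taken from 8 groups of 48 genes. In the GFP line 34 of the 48 reached 1 TPM, of which 22 were at least 2-fold lower and 1 was higher, beside 45.0% and 14.2% of all genes, and the median was -1.19 (log2). In the tdTomato line 36 reached 1 TPM, of which 8 were at least 2-fold lower and 4 were higher, beside 23.2% and 17.2% of all genes, with a median of -0.48. The tdTomato count of lower partner genes was thus near the share over all genes. With median ratios 8 of 34 were lower in the GFP line, near the 21.7% of all genes, and 4 were higher, beside 21.4%. Without the highest genes 14 were lower and 3 higher in that line, beside 29.7% and 17.5%. The partner medians thus lay between those of the 10 factors and of all genes, -0.88 and -0.23. Scaled to mature OSN markers, the direction turned for 25 of 34 partner genes in the GFP line and 16 of 36 in the tdTomato line. With that scaling 2 of 34 were 2-fold lower and 26 higher in the GFP line, and 3 of 36 were lower and 12 higher in the tdTomato line, near the shares over all genes (7.69% and 77.3%, and 12.3% and 39.0%). Of the 33 partner genes counted in both lines, the 4 that were lower in both as deposited and with all 3 other scalings were *Zfp423*, *Emx1*, *Rcor2* and *Gfi1*, beside 7.96% of all genes. No minimum size was required, and *Zfp423* was at -0.06 in the tdTomato line when scaled to mature OSN markers. *Emx1* and *Gfi1* were under 1 TPM in both positive libraries, so their values depend on the pseudocount. The 3 that were higher throughout were *Isl1*, *Lmo4* and *Rbbp7*, beside 17.6% of all genes.

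Other LIM-homeodomain genes, which could share LDB1 with LHX2, were almost silent. Of 11 such genes 6 were listed at 0 in all 4 libraries, and only *Isl1* exceeded 5 TPM. *Isl1* measured 4.26 TPM in GFP-negative, 33.0 TPM in GFP-positive, 5.47 TPM in tdTomato-negative and, for tdTomato-positive cells, 32.1 TPM. It was thus higher in both positive libraries, by 2.69 and 2.35 on the log2 scale, and stayed below *Lhx2* in each library.

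LIM-only proteins and single-stranded DNA-binding proteins also bind LDB1. *Lmo2* measured 66.7, 12.4, 44.9 and 14.6 TPM in GFP-negative, GFP-positive, tdTomato-negative and tdTomato-positive cells, 2-fold lower in both lines. *Lmo4* went the other way, with 67.3, 100.7, 59.5 and 93.5 TPM, or log2 fold changes of 0.58 and 0.64. *Ssbp2* and *Ssbp3* had log2 fold changes of -1.71 and -1.09 in the GFP line and -0.80 and -0.63 in the tdTomato line, and *Ssbp4* had -0.97 and 0.37. *Ldb2*, the paralog of *Ldb1*, was at most 0.0443 TPM in any library. Of the 7 genes of this group that were counted, 5 were 2-fold lower in the GFP line and 1 in the tdTomato line, beside 45.0% and 23.2% of all genes. In the GFP line 1 of 7 was lower with median ratios and 2 of 7 without the highest genes, beside 21.7% and 29.7%. Scaled to mature OSN markers 0 were lower and 6 higher there, beside 7.69% and 77.3%.

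*Zfp423*, a zinc-finger protein that binds EBF proteins, measured 16.2 TPM in GFP-negative, 0.777 TPM in GFP-positive, 19.6 TPM in tdTomato-negative and, for tdTomato-positive cells, 8.94 TPM. Its log2 fold changes were -3.28 and -1.05, and since its GFP-positive level is under 1 TPM the former depends on the pseudocount. Scaled to mature OSN markers it was at -1.07 in the GFP line, below *Ebf1* at -0.03. *Emx1*, the paralog of *Emx2*, was lower than *Emx2* in every library, at 8.90, 0.431, 3.44 and 0.101 TPM. Its log2 fold changes were -2.79 and -2.01, and both depend on the pseudocount, since its positive levels are under 1 TPM.

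Of the partners of BPTF in NURF, 2 of 4 were 2-fold lower in the GFP line, beside 45.0% of all genes, and 0 of 5 in the tdTomato line, beside 23.2%. With median ratios 0 of 4 were 2-fold lower in the GFP line, beside 21.7%. The ATPase gene *Smarca5* had log2 fold changes of -1.25 and -0.81, while the histone-binding subunit gene *Rbbp7* had 0.14 and 0.19. *Bcl11a*, the paralog of *Bcl11b*, measured 55.0, 9.62, 52.0 and 33.2 TPM, with log2 fold changes of -2.40 and -0.63. With the BAF remodeller genes *Smarca4*, *Smarcb1* and *Smarcc1*, whose complex holds BCL11 proteins, 3 of 4 were 2-fold lower in the GFP line and 0 of 4 in the tdTomato line, beside 45.0% and 23.2% of all genes. With median ratios 1 of these 4 was 2-fold lower in the GFP line, beside 21.7%.

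LSD1 works with corepressors of the CoREST family, histone deacetylases and recruiting zinc-finger proteins. Of these partners 7 of 11 were 2-fold lower in the GFP line, beside 45.0% of all genes. In the tdTomato line 4 of 12 were lower and 2 were higher, near the 23.2% and 17.2% of all genes. With median ratios 3 of 11 were lower in the GFP line, beside 21.7%. Scaled to mature OSN markers 1 of 11 was lower and 9 were higher there, beside 7.69% and 77.3%. *Rcor1*, the CoREST gene, measured 101.0, 27.5, 120.7 and 46.1 TPM in GFP-negative, GFP-positive, tdTomato-negative and tdTomato-positive cells, and the neuronal paralog *Rcor2* measured 25.3, 1.85, 19.5 and 4.84 TPM. Both corepressor genes were thus lower by more than *Kdm1a* in each line, with log2 fold changes of -1.84 and -1.37 for *Rcor1* and -3.20 and -1.81 for *Rcor2*. The deacetylase genes *Hdac1* and *Hdac2* had log2 fold changes of -0.63 and -1.11 in the GFP line and 0.02 and -0.80 in the tdTomato line. *Gfi1*, which recruits LSD1 in other tissues, was at 8.81 and 6.72 TPM in the negative libraries and at 0 and 0.0190 TPM in the positive ones.

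After a receptor protein is made, the unfolded protein response kinase gene *Eif2ak3* and the factor gene *Atf5* act in the feedback that settles receptor choice. *Atf5* measured 1790 TPM in GFP-negative, 356.8 TPM in GFP-positive, 1717 TPM in tdTomato-negative and, for tdTomato-positive cells, 986.8 TPM. Its log2 fold changes were -2.32 and -0.80, beside -2.61 and -0.87 for *Lhx2*. *Eif2ak3* had -0.92 and -0.50, and of this group of 4 genes 2 were 2-fold lower in the GFP line and 1, *Ddit3*, in the tdTomato line, beside 45.0% and 23.2% of all genes. With median ratios 1 of the 4 was 2-fold lower in the GFP line, beside 21.7%.

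**Figure D5:**
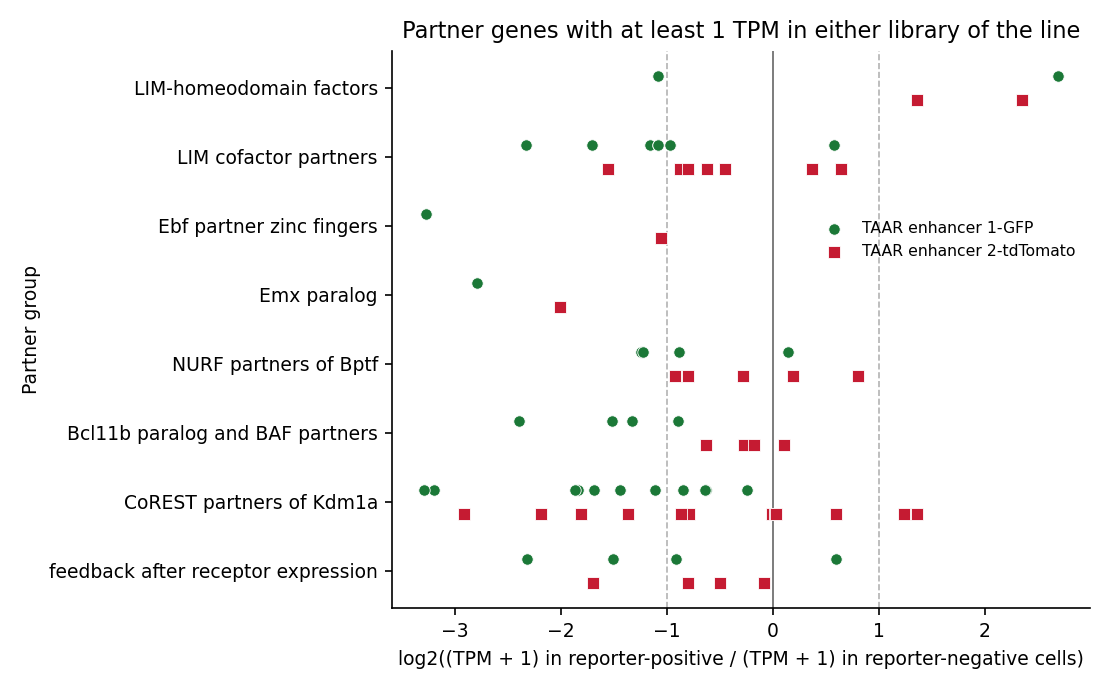
Log2 fold changes of partner genes with at least 1 TPM in either library of the line, by group, in the GFP line (green circles, 34 genes) and the tdTomato line (red squares, 36 genes), with dashed lines at 2-fold. Of these 22 lie at or below the lower line in the GFP line and 8 in the tdTomato line, and *Isl1* lies farthest right in both, at 2.69 and 2.35. With median ratios 8 of the 34 are 2-fold lower in the GFP line, near the 21.7% of all genes. Scaled to mature OSN markers, 2 and 3 genes are 2-fold lower, near the 7.69% and 12.3% of all genes.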

How the data were processed

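Cells of the MOE were dissociated and sorted by FACS, and RNA of each population was sequenced as 1 library, prepared with Smart-seq2 per the study's methods and with a Vazyme kit per the labels. The authors deposited TPM per gene symbol for 4 libraries. The study's methods name Hisat2, Cufflinks and featureCounts, while the submitters' processing notes name Trimmomatic 0.36, Salmon 1.4.0 and the build mm10. Which step gave the TPM, the annotation and any filter are not given in the sources used here. TPM holds no depth, so no confidence interval or detection limit was computed.

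From the deposited TPM, log2 fold changes were computed with a pseudocount of 1, and genes with at least 1 TPM in either library of a line were counted as lower or higher at 2-fold (Python 3.11.15, pandas 2.3.3, NumPy 2.4.6). All 10 genes passed this minimum. The scripts were tested on simulated data. Each group has 1 library, so no statistical test was run. Named genes were the 10 factors, their partner genes, marker genes and the 2 nearest profiles of each factor. The members and lists were chosen with earlier results of these data known. Positions and transcripts came from GENCODE M21 (GRCm38), and promoters from RefSeq (GRCm38.p6). The cloned *Taar* enhancers were not searched for motifs. Alternatives covered the pseudocount, 3 scalings, the fold and the TPM minimum.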

Additional observations from a re-analysis of the deposited data

Results flagged for a closer look

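None of the 10 factors had opposite directions in the 2 lines as deposited. Among their partner genes, 2 of the LSD1 group were lower in reporter-positive cells of the GFP line and higher in those of the tdTomato line, by over 1.5-fold in both, as were 5.06% of all genes counted in both lines. *Kdm1b*, which encodes the related demethylase LSD2, measured 11.9 TPM in GFP-negative, 7.29 TPM in GFP-positive, 8.50 TPM in tdTomato-negative and, for tdTomato-positive cells, 21.4 TPM, with log2 fold changes of -0.64 and 1.24. *Phf21a*, which encodes a histone reader of the LSD1 complex, measured 16.2, 8.59, 15.4 and 23.8 TPM in the same order, with log2 fold changes of -0.85 and 0.59. With 1 library a group, neither difference between lines was tested. The 1.5-fold opposite directions were lost for both genes with each of the 3 other scalings. In the GFP line *Kdm1b* was at 0.16 and *Phf21a* at -0.03 with median ratios, at -0.19 and -0.39 without the highest genes, and at 2.23 and 2.07 with scaling to mature OSN markers.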

How the results depend on the processing

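No paired analysis was possible because no group holds more than 1 library, and no replicate could be left out. The lines carry different enhancers and were not used as replicates of each other. The scaling of the libraries mattered most. Scaled to the 12 mature OSN markers, 0 of the 10 factors were 2-fold lower and 3 were 2-fold higher in GFP-positive cells, and 0 were 2-fold lower in tdTomato-positive cells. Of all genes, 7.69% were then 2-fold lower and 77.3% higher in the GFP line, and 12.3% lower and 39.0% higher in the tdTomato line. The median log2 fold change then became 0.33 in the GFP line and 0.24 in the tdTomato line, and the summed *Ebf* level 0.15 and 0.17. With this scaling the log2 fold changes in the GFP line turned to 0.48 for *Lhx2*, 1.46 for *Ldb1*, 0.23 for *Ebf2*, 0.26 for *Ebf3*, 0.066 for *Ebf4*, 0.36 for *Emx2*, 1.81 for *Bptf*, 0.30 for *Bcl11b* and 2.28 for *Kdm1a*. In the tdTomato line they turned to 0.19 for *Lhx2*, 0.42 for *Ldb1*, 0.030 for *Ebf2*, 0.029 for *Ebf3*, 0.47 for *Ebf4*, 0.28 for *Emx2*, 0.86 for *Bptf* and 0.85 for *Kdm1a*. *Ebf1* stayed below 0 at -0.03 and -0.12, and *Bcl11b* in the tdTomato line at -0.24. Median-ratio scaling gave a median of -1.79 and a summed *Ebf* level of -2.07 in the GFP line. The count of factors at least 2-fold lower in tdTomato-positive cells, 4 as reported, was 2 with median-ratio scaling, with rescaling after the highest genes were removed and with a pseudocount of 10, beside 19.9%, 22.3% and 10.5% of all genes. It was 8 at a minimum of 1.5-fold and 0 at 4-fold, beside 35.7% and 11.4% of all genes. All 20 single-gene values stayed below 0 with pseudocounts of 0.1 and 10 and without the highest genes, and 19 of 20 did with median-ratio scaling. No TPM minimum, or one of 5 TPM, changed neither counts nor medians.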
